A study of Mus musculus with 27 samples.

Results

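Bhlhe40 and 9 genes of the core circadian clock were followed through 27 mouse RNA-seq libraries. They are 10 of the 25192 gene symbols in the deposited count table and were chosen by name: Bhlhe40, Bhlhe41, Per1, Per2, Per3, Cry1, Cry2, Nr1d1, Nr1d2 and Dbp. Bhlhe40 was included with its higher level in treated macrophages already known, so its macrophage values are given as a description without a test.

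The study treated cultured mouse cells with imidazole propionate (ImP), a product of histidine breakdown by gut bacteria, at 10 µg/mL and asked which genes it raises in different cell types. Bone marrow derived macrophages (BMDMs), cells labelled mouse aortic endothelial cells (MAECs) and mouse embryonic fibroblasts (MEFs) were each collected unstimulated (0 h) and after 1 h and 2 h with ImP, with 3 libraries in each of the 9 groups. The labels give no genotype, strain or age, no vehicle-treated group at 1 h or 2 h, and no separate culture or animal for each library, so p-values measure the spread between these libraries, which may be technical. MAEC libraries were made with a low-input kit and the others with a directional kit, so cell type and kit cannot be told apart in any comparison of MAECs with other cells.

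The mammalian clock is a transcription loop that runs in most cells. A dimer of CLOCK and ARNTL (BMAL1) binds E-boxes and turns on the Per and Cry genes, whose proteins return to block that dimer. Nr1d1 and Nr1d2 encode the REV-ERB nuclear receptors, which repress Arntl. Dbp is an E-box target that in turn acts through D-boxes. Bhlhe40 (DEC1) and Bhlhe41 (DEC2) are basic helix-loop-helix repressors that bind the same E-boxes. Bhlhe40 is also an early response gene with roles in macrophage and T cell cytokine production, and Per1 and Nr1d1 can respond within hours to stimuli such as serum or hormones.

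Promoters are shown for the members whose window holds the E-box, the element that the CLOCK and ARNTL dimer and the DEC repressors bind, and for Nr1d1, whose levels ran closest to those of Bhlhe40 among the 10 genes. Each is the RefSeq sequence (GRCm38.p6) from 250 bases before to 50 bases after a transcription start, 5′ to 3′ on the gene's strand, with the E-box CACGTG in capitals.
Per1, chr11:69098699-69098998, plus strand: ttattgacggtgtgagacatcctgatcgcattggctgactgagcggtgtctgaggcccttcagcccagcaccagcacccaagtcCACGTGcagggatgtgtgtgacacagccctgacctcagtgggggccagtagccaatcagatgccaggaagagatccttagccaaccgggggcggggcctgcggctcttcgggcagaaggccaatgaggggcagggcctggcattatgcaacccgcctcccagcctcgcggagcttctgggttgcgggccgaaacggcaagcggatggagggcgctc
Cry1, chr10:85185005-85185304, minus strand: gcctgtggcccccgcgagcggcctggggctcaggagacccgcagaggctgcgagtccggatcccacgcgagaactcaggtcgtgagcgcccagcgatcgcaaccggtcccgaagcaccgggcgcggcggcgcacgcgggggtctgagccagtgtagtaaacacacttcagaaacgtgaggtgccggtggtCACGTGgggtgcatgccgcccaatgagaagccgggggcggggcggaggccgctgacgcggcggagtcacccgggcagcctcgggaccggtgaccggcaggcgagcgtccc
Bhlhe41, chr6:145865371-145865670, minus strand: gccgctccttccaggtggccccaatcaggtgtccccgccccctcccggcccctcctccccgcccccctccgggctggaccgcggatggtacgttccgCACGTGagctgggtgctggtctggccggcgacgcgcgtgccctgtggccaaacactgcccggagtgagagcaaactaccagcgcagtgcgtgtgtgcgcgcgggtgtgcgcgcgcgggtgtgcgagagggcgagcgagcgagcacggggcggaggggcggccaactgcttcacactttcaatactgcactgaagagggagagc
Nr1d1, chr11:98775328-98775627, minus strand: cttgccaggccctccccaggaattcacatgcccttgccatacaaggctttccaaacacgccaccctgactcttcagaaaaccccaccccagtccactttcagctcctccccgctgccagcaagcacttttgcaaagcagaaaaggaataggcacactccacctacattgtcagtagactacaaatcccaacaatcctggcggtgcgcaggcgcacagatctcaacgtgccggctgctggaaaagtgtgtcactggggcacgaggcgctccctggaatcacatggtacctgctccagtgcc

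The E-box, a palindrome and so read alike on both strands, began at position -166 relative to the start in Per1, at -60 in Cry1 and at -153 in Bhlhe41. These 3 members were among 8 that had an entry, with 9 starts in all because Per1 has 2, and 7.15% of all 32851 promoter windows of the same length held CACGTG. The D-box TTATGTAA, searched on both strands, was in Per3 only, at 2 places, against 0.938% of windows. The cAMP response element TGACGTCA (1.79% of windows) and the ROR and REV-ERB core TAGGTCA (2.606% of windows, either strand) were in 0 of the 8. Windows holding a motif are a description of letters and not of binding. Bhlhe40 and Per2 had no entry.

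Library totals were 28754034 to 35583478 counts in BMDMs, 18955352 to 61029374 in MAECs and 30554596 to 36489015 in MEFs. BMDM libraries held all 6 macrophage markers at 10 counts per 1000000 (CPM) or more, 0 of 7 fibroblast markers and 3 of 10 endothelial markers, namely Vwf (161 CPM), Eng (74.3 CPM) and Kdr (12.5 CPM), with a summed endothelial level of 234 to 280 CPM per library. MEF libraries held 4 of 7 fibroblast markers and 0 of 10 endothelial markers at that level. The MAEC libraries went against their label. Of 10 endothelial markers, 1 (Eng) averaged 10 CPM or more, 5 averaged under 1 CPM and none was at 0 throughout, with a summed level of 89.9 to 137 CPM per library. Fibroblast markers summed to 1702 to 2533 CPM in the same MAEC libraries and smooth muscle markers to 780 to 1412 CPM. The part of cell identity in the MAEC results was not tested.

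The third BMDM libraries labelled 1 h and 2 h also stood apart. Nfkbia, an NF-kB inhibitor that NF-kB itself induces, was at 46.0, 41.7 and 42.1 CPM at 0 h, at 258, 248 and 47.1 CPM in the libraries labelled 1 h, and at 51.7, 42.4 and 267 CPM in those labelled 2 h. In the third run of library codes the order of the 1 h and 2 h codes is also reversed from that in the other runs. The labels were kept, and fitted ImP differences in BMDMs are given with and without those 2 libraries. For genes with the layout of Nfkbia, calls and p-values without them follow in part from that choice and are a description.

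Levels below are CPM scaled by the trimmed mean of M-values (TMM) over all 27 libraries. In unstimulated cells the 10 genes ranked differently in each cell type. Per kilobase of exon, Bhlhe41 was the most abundant member in BMDMs at 20.5 ± 1.5 CPM per kb (SD, n = 3), followed by Nr1d2 at 17.9 ± 1.00 and Dbp at 12.1 ± 0.65 CPM per kb. Bhlhe40 came next in BMDMs at 8.55 ± 0.099 CPM per kb, ahead of Per1 (5.86), Cry1 (3.41), Nr1d1 (2.30), Per3 (1.56), Cry2 (1.29) and Per2 (0.487). No neighbours in this BMDM order overlapped between their 3 libraries.

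In MAECs Nr1d1 led at 21.5 ± 4.5 CPM per kb and Bhlhe40 followed at 13.7 ± 1.3 CPM per kb. Nr1d2 (6.55) and Dbp (6.04) came next in MAECs and overlapped. Bhlhe41 (2.35), Per3 (2.14), Cry2 (2.04) and Cry1 (1.72 CPM per kb) overlapped one another in MAECs, and Per1 (0.597) and Per2 (0.189) were below them. In MEFs Bhlhe40 led by a wide margin at 30.7 ± 2.1 CPM per kb. Nr1d2 (8.96), Nr1d1 (8.04) and Cry1 (7.58 CPM per kb) followed in MEFs, with Nr1d1 overlapping both of its neighbours. Below them in MEFs came Per1 (5.26), Bhlhe41 (3.72), Cry2 (2.26), Per3 (1.79), Per2 (1.29) and Dbp (0.589 CPM per kb), with no overlap between neighbours. Per2 was thus the lowest member in BMDMs and MAECs, and Dbp in MEFs.

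**Figure D1:**
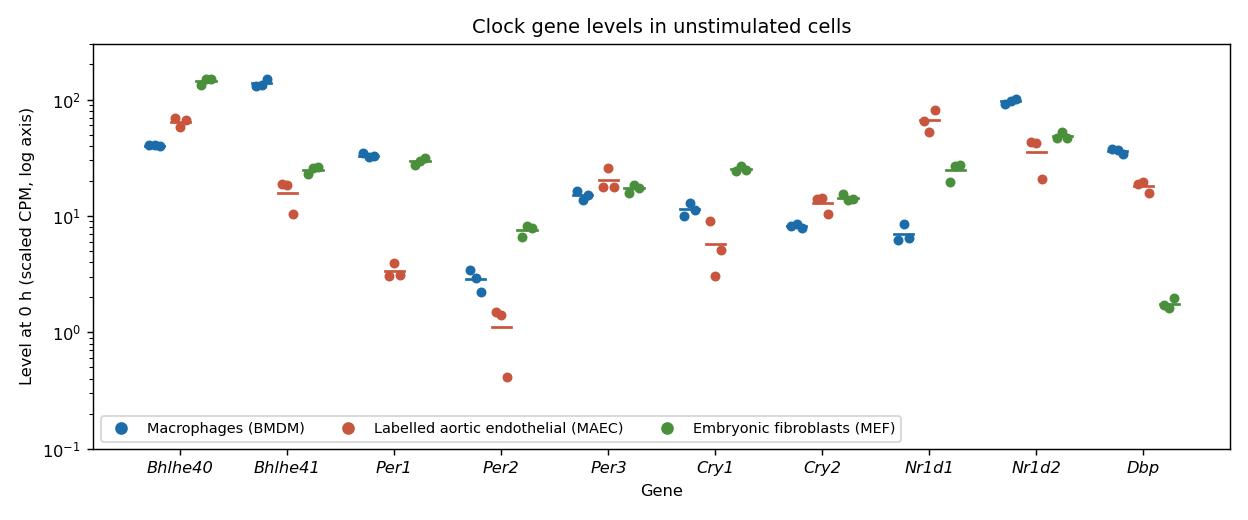
Level of each of the 10 genes in unstimulated cells, in scaled CPM on a log axis. Points are libraries (3 per cell type) and short lines are means. Dbp and Bhlhe41 are highest in BMDMs, Nr1d1 in MAECs and Bhlhe40 in MEFs, while the Per3 points of the 3 cell types lie close together.

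Between unstimulated BMDMs and MEFs, 8 of the 10 genes differed (adjusted p under 0.05, edgeR quasi-likelihood test with Benjamini-Hochberg adjustment), 3 higher and 5 lower in BMDMs. Over all 17038 genes tested, 68.3% differed (32.7% higher and 35.5% lower in BMDMs), so the share of members is near the background. Dbp showed the largest difference, with 37.5, 36.8 and 33.9 CPM in BMDMs against 1.72, 1.61 and 1.96 CPM in MEFs (log2 4.37, SE 0.195, adjusted p = 1.16e-16). The groups lay far apart with little spread within each. Bhlhe41 averaged 138 ± 9.8 CPM in BMDMs and 25 ± 1.7 CPM in MEFs (log2 2.48, SE 0.161, adjusted p = 2.95e-13). Nr1d2 averaged 96.7 ± 5.4 CPM in BMDMs and 48.5 ± 3.3 CPM in MEFs (log2 1.01, SE 0.180, adjusted p = 1.89e-05).

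Bhlhe40 had 40.6, 40.4 and 39.7 CPM in unstimulated BMDMs, against 133, 150 and 151 CPM in MEFs (log2 -1.83, SE 0.139, adjusted p = 7.51e-12). So the related repressors ran in opposite directions, with Bhlhe41 higher and Bhlhe40 lower in BMDMs. The REV-ERB pair did the same: against the higher Nr1d2, Nr1d1 was lower in BMDMs, at 7.07 ± 1.3 CPM against 24.7 ± 4.5 CPM in MEFs (log2 -1.78, SE 0.194, adjusted p = 7.09e-09). Among the loop repressors, Per2 (log2 -1.38, adjusted p = 0.00170), Cry1 (log2 -1.13, adjusted p = 0.000147) and Cry2 (log2 -0.79, adjusted p = 0.00288) were lower in BMDMs. Per1 averaged 33 ± 1.5 CPM in BMDMs and 29.6 ± 2.2 CPM in MEFs, and Per3 15 ± 1.3 and 17.2 ± 1.2 CPM, and neither passed (adjusted p = 0.484 and 0.291). Scaling by library totals alone put the median over all genes at log2 -0.48 in place of -0.07 and the calls over all genes at 4334 higher and 7621 lower, in place of 5578 higher and 6057 lower. Under it the 8 calls kept their directions, Per3 passed as well (log2 -0.60, adjusted p = 0.00245), and Per1, at log2 0.17 with TMM, was at -0.24 (adjusted p = 0.335).

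Between unstimulated MAECs and MEFs, 8 of the 10 genes differed as well, 2 higher and 6 lower in MAECs, where 72.1% of all genes did (37.2% higher and 34.9% lower). Dbp averaged 18.1 ± 2.0 CPM in MAECs and 1.76 ± 0.18 CPM in MEFs (log2 3.36, SE 0.190, adjusted p = 1.83e-14). Nr1d1 had 65.3, 52.7 and 80.6 CPM in MAECs, against 19.5, 27 and 27.6 CPM in MEFs (log2 1.42, SE 0.184, adjusted p = 1.35e-07), the reverse of its direction in BMDMs. The Period genes split: Per1 had 3.07, 3.93 and 3.08 CPM in MAECs against 27.2, 29.9 and 31.6 CPM in MEFs (log2 -3.15, SE 0.243, adjusted p = 9.75e-12), and Per2 was lower too (log2 -2.75, adjusted p = 6.48e-07). Per3, at 20.5 ± 4.6 CPM in MAECs and 17.2 ± 1.2 CPM in MEFs, did not pass (adjusted p = 0.127), nor did Cry2 (adjusted p = 0.558). Cry1 (log2 -2.11, adjusted p = 2.08e-08), Bhlhe40 (log2 -1.16, adjusted p = 2.35e-08) and Bhlhe41 (log2 -0.66, adjusted p = 0.000628) were lower in MAECs. Nr1d2 averaged 35.4 ± 13 CPM in MAECs and 48.5 ± 3.3 CPM in MEFs (log2 -0.45, SE 0.180, adjusted p = 0.0283), and that call was lost without the third unstimulated MAEC library (log2 -0.19, adjusted p = 0.231) or the second unstimulated MEF library (log2 -0.40, adjusted p = 0.0871). In bulk RNA, fewer cells of a type and less RNA per cell cannot be told apart.

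Bhlhe40 was higher in every ImP-treated BMDM library than in any unstimulated one. It had 40.6, 40.4 and 39.7 CPM at 0 h, 55.9, 56.0 and 57.9 CPM after 1 h, and 57.4, 58.0 and 56.7 CPM after 2 h. The 6 treated BMDM libraries stayed within 55.9 to 58.0 CPM, also in the third pair, whose Nfkbia stood apart. The difference from 0 h was log2 0.49 (SE 0.063) at 1 h and log2 0.51 (SE 0.063) at 2 h, a 1.40-fold and a 1.43-fold higher level. Leaving out any 1 library, the value stayed within 0.47 to 0.50 at 1 h and 0.50 to 0.52 at 2 h. Leaving out both of the third libraries, it was 0.47 (SE 0.072) at 1 h and 0.52 (SE 0.072) at 2 h.

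**Figure D2:**
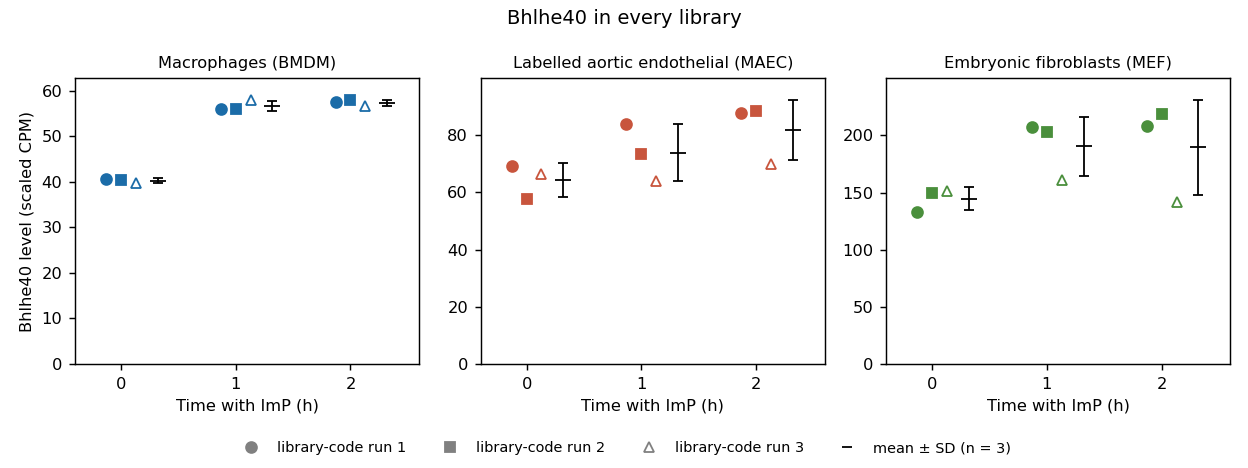
Bhlhe40 level in scaled CPM in each library at 0, 1 and 2 h with ImP, by cell type, each panel with its own axis from 0. Symbols mark the 3 runs of library codes and bars give the mean ± SD. BMDM points at 1 and 2 h lie between 55.9 and 58.0 CPM, above 0 h, and in MEFs the open triangles of the third run stay near 0 h at 142 to 161 CPM.

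Of the 9 other genes in BMDMs, 0 passed at 1 h and 0 at 2 h by edgeR, DESeq2 or limma-voom. Of all 13251 genes, 0.0226% passed at 1 h and 0.0302% at 2 h, so few genes of any kind were called. At an unadjusted p under 0.05, 3 of the 9 genes had a positive difference at 1 h (5.23% of all genes had such a p in either direction) and 2 of the 9 at 2 h (6.15%). The median difference of the 9 was log2 0.19 at 1 h and 0.13 at 2 h, where that of all genes was 0.00 at both times.

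The 3 genes at 1 h were Nr1d1, Per1 and Per2. Nr1d1 had 6.24, 8.51 and 6.44 CPM at 0 h, 10.2, 9.68 and 8.32 CPM after 1 h, and 8.55, 8.16 and 11.4 CPM after 2 h. The second 0 h library overlapped the treated ones, and the 3 highest libraries were the 3 in which Nfkbia was high. The difference was log2 0.40 (SE 0.168, adjusted p = 0.922) at 1 h and log2 0.41 (SE 0.169, adjusted p = 0.770) at 2 h. Without the third 1 h and 2 h libraries it was log2 0.48 (adjusted p = 0.447) at 1 h and 0.24 (adjusted p = 0.757) at 2 h.

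Per1 in BMDMs had 34.6, 31.8 and 32.5 CPM at 0 h, 41.7, 43.1 and 33.3 CPM after 1 h, and 34, 33.6 and 36.6 CPM after 2 h. Its 3 highest libraries were those same 3. The 1 h difference was log2 0.25 (SE 0.095, adjusted p = 0.922), and without the third 1 h and 2 h libraries it was log2 0.36 (SE 0.081, adjusted p = 0.0705). Cry2 had the same 3 libraries highest in BMDMs, with 8.18, 8.48 and 7.85 CPM at 0 h, 9.62, 10.8 and 7.55 CPM after 1 h, and 6.06, 8.40 and 9.84 CPM after 2 h. Its differences were log2 0.19 (adjusted p = 0.967) at 1 h and -0.01 (adjusted p = 0.997) at 2 h, and log2 0.31 (adjusted p = 0.758) and -0.18 (adjusted p = 0.825) without the third 1 h and 2 h libraries. Per2, at low levels in BMDMs, had 4.24, 3.77 and 3.79 CPM after 1 h, against 3.40, 2.92 and 2.24 CPM at 0 h, without overlap (log2 0.46, SE 0.211, adjusted p = 0.922, and log2 0.49, adjusted p = 0.748, without the third libraries).

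Bhlhe41, the paralogue of Bhlhe40, was at its highest in 2 BMDM libraries at 2 h. It had 131, 134 and 149 CPM at 0 h, 135, 148 and 159 CPM after 1 h, and 166, 168 and 140 CPM after 2 h. The 2 h difference was log2 0.20 (SE 0.083, adjusted p = 0.776), and log2 0.27 (SE 0.072, adjusted p = 0.390) without the third 1 h and 2 h libraries. The differences of Per3, Cry1, Nr1d2 and Dbp in BMDMs lay between log2 -0.05 and 0.23 at 1 h and between 0.06 and 0.22 at 2 h, and between -0.08 and 0.09 at 1 h and 0.05 and 0.34 at 2 h without the third libraries. Between 2 h and 1 h, 0 of the 10 genes passed and 0 had an unadjusted p under 0.05 by edgeR (0% of all genes passed, 1.65% had such a p). Without the third 1 h and 2 h libraries, 0 members passed in any BMDM comparison, although the calls over all genes were 111 higher and 14 lower at 1 h (0.928% of genes), 15 higher and 1 lower at 2 h (0.119%), and 7 higher and 82 lower between 2 h and 1 h (0.661%). In that fit, 2 of the 9 members besides Bhlhe40 had an unadjusted p under 0.05 at 1 h (7.40% of all genes). These were Per1 and Nr1d1, both higher. At 2 h there were 3 (7.75%), all higher: Bhlhe41, Cry1 (log2 0.34, adjusted p = 0.626) and Dbp (log2 0.22, adjusted p = 0.627). Between 2 h and 1 h in the same fit, 3 of the 10 members had an unadjusted p under 0.05 (5.55% of all genes). They were Per1 (log2 -0.32, SE 0.090, adjusted p = 0.270), Cry2 (log2 -0.49, SE 0.184, adjusted p = 0.702) and Bhlhe41 (log2 0.24, SE 0.080, adjusted p = 0.516).

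**Figure D3:**
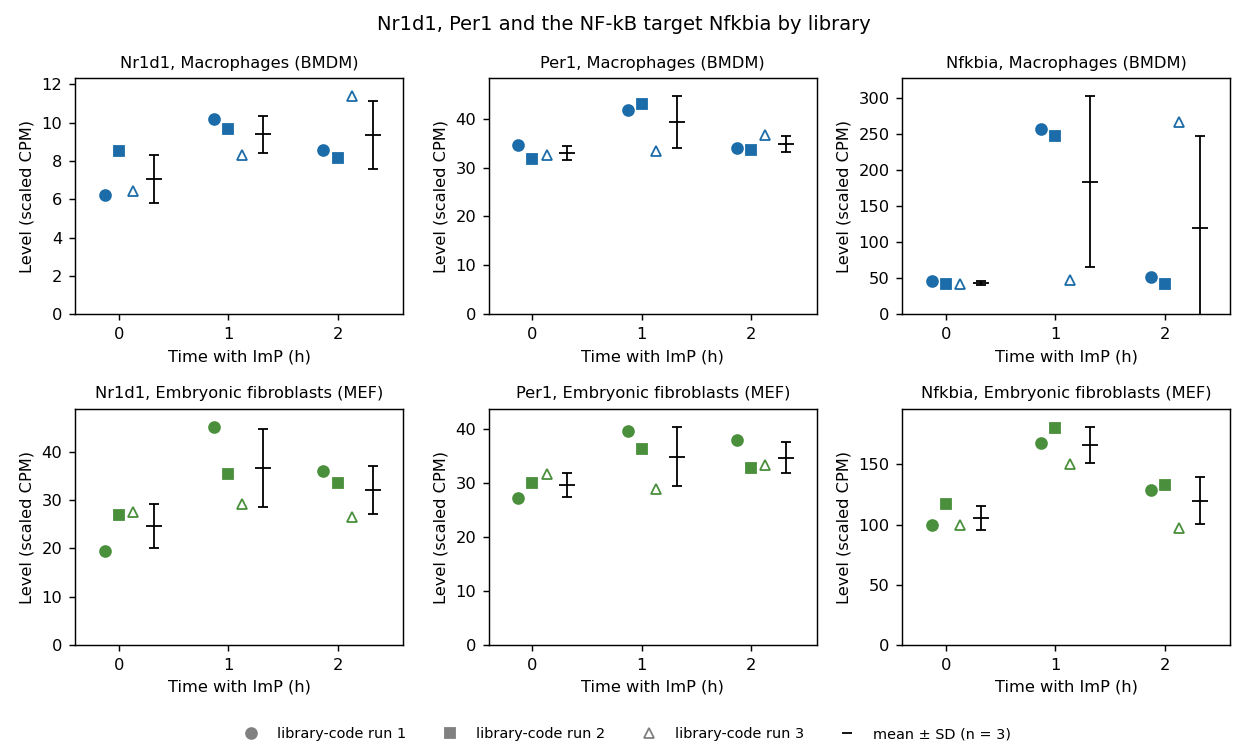
Levels of Nr1d1, Per1 and the NF-kB target Nfkbia in scaled CPM in each library at 0, 1 and 2 h with ImP, BMDMs above and MEFs below. Symbols mark the 3 runs of library codes and bars give the mean ± SD, with bars cut at 0. In BMDMs the 2 filled points at 1 h and the open triangle at 2 h are high for Nfkbia (248 to 267 CPM) and are the highest for Per1 (36.6 to 43.1 CPM).

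In MEFs, 0 of the 10 genes passed at 1 h, at 2 h or between 2 h and 1 h by edgeR, DESeq2 or limma-voom, and by edgeR 0% of all 14066 genes did. At an unadjusted p under 0.05, there were 2 members at 1 h, 1 at 2 h and 0 between the times, against 5.87%, 2.43% and 12.1% of all genes. Bhlhe40 had 133, 150 and 151 CPM at 0 h, 207, 203 and 161 CPM after 1 h, and 208, 219 and 142 CPM after 2 h. The first and second treated libraries were well above 0 h at both times, while the third was just above at 1 h and within the 0 h range at 2 h. The differences were log2 0.39 (SE 0.158, adjusted p = 0.846) at 1 h and log2 0.36 (SE 0.158, adjusted p = 1.000) at 2 h.

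Nr1d1 in MEFs followed the same layout. It had 19.5, 27 and 27.6 CPM at 0 h, 45.2, 35.5 and 29.3 CPM after 1 h, and 36.1, 33.5 and 26.5 CPM after 2 h. At 1 h every treated library was above every 0 h one (log2 0.56, SE 0.181, adjusted p = 0.846). Per1 had 27.2, 29.9 and 31.6 CPM at 0 h, 39.6, 36.2 and 28.8 CPM after 1 h, and 37.9, 32.8 and 33.4 CPM after 2 h. The third 1 h library lay within the 0 h range. Nfkbia in MEFs had 100, 117 and 99.3 CPM at 0 h. It had 168, 180 and 150 CPM after 1 h, and 129, 133 and 97.1 CPM after 2 h. The library listed last was lowest at every time, 0 h included. Over 0 h of the same run of library codes, Nfkbia was at log2 0.75, 0.62 and 0.59 after 1 h. After 2 h it was at log2 0.36, 0.18 and -0.03. In the last run at 1 h, Nfkbia was thus at log2 0.59, where Bhlhe40 was at log2 0.09 and Nr1d1 at log2 0.08. These are ratios of single libraries, and runs of library codes did not meet the condition for pairing given in the last section.

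Within runs of MEF library codes, the ratio of Bhlhe40 over 0 h was log2 0.64 at both times in the first run, 0.44 at 1 h and 0.55 at 2 h in the second, and 0.09 and -0.09 in the third. Leaving out the third run, a choice made after seeing these values, gave log2 0.53 (SE 0.079, adjusted p = 0.0687) at 1 h and 0.56 (adjusted p = 0.0806) at 2 h for Bhlhe40. For Nr1d1 it gave log2 0.79 (SE 0.161, adjusted p = 0.298) at 1 h and 0.55 (adjusted p = 0.840) at 2 h. For Per1 it gave log2 0.40 (SE 0.110, adjusted p = 0.592) at 1 h and 0.27 (SE 0.110, adjusted p = 0.992) at 2 h. In this fit 0 members passed, where 6 of 14317 genes passed at 1 h, all higher, and 0 at 2 h. Because the run was left out after these values were seen, the SEs and adjusted p-values of this fit are a description and lend no support. With all libraries, Nr1d1 was at log2 0.35 (adjusted p = 1.000) at 2 h, and the members other than Bhlhe40 and Nr1d1 lay between log2 -0.13 and 0.24 at 1 h and between -0.12 and 0.20 at 2 h in MEFs.

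In MAECs, 0 of the 10 genes passed at 1 h, at 2 h or between 2 h and 1 h by edgeR, DESeq2 or limma-voom, and by edgeR 0% of all 14779 genes did. At an unadjusted p under 0.05 there was 1 member at 1 h (4.96% of all genes), 2 at 2 h (9.21%) and 0 between the times (1.98%). All 10 fitted differences were above 0 at 1 h and 9 of 10 at 2 h, with medians of log2 0.24 and 0.30 against 0.00 and 0.01 for all genes. The third 0 h MAEC library held the lowest MAEC value of Bhlhe41 (10.3 CPM), Per2 (0.413 CPM), Per3 (17.8 CPM), Nr1d2 (20.6 CPM) and Dbp (15.8 CPM). It held the highest MAEC value of Nr1d1 (80.6 CPM). The part of this library in these medians was not tested.

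Cry1, a main repressor of the CLOCK and ARNTL dimer, showed the largest difference among members in MAECs. It had 8.98, 3.06 and 5.15 CPM at 0 h, 12.2, 8.17 and 11.5 CPM after 1 h, and 12.5, 12.5 and 9.18 CPM after 2 h. The first 0 h library reached above the second 1 h library, and at 2 h the groups did not overlap. The differences were log2 0.90 (SE 0.323, adjusted p = 0.826) at 1 h and log2 1.00 (SE 0.323, adjusted p = 0.539) at 2 h.

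Bhlhe40 in MAECs had 69.1, 57.8 and 66.4 CPM at 0 h, 84.1, 73.5 and 64.1 CPM after 1 h, and 87.7, 88.4 and 69.9 CPM after 2 h. Treated and untreated libraries overlapped at 1 h and just separated at 2 h. The differences were log2 0.20 (SE 0.124, adjusted p = 0.826) at 1 h and log2 0.35 (SE 0.124, adjusted p = 0.539) at 2 h. Cry2 had 18.3, 19.1 and 19.5 CPM after 2 h, against 14, 14.4 and 10.3 CPM at 0 h, again without overlap (log2 0.55, adjusted p = 0.545). Nr1d1, already high in unstimulated MAECs, had 65.3, 52.7 and 80.6 CPM at 0 h, 69.7, 71.5 and 70.8 CPM after 1 h, and 74.9, 72.0 and 60.4 CPM after 2 h, all overlapping.

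**Figure D4:**
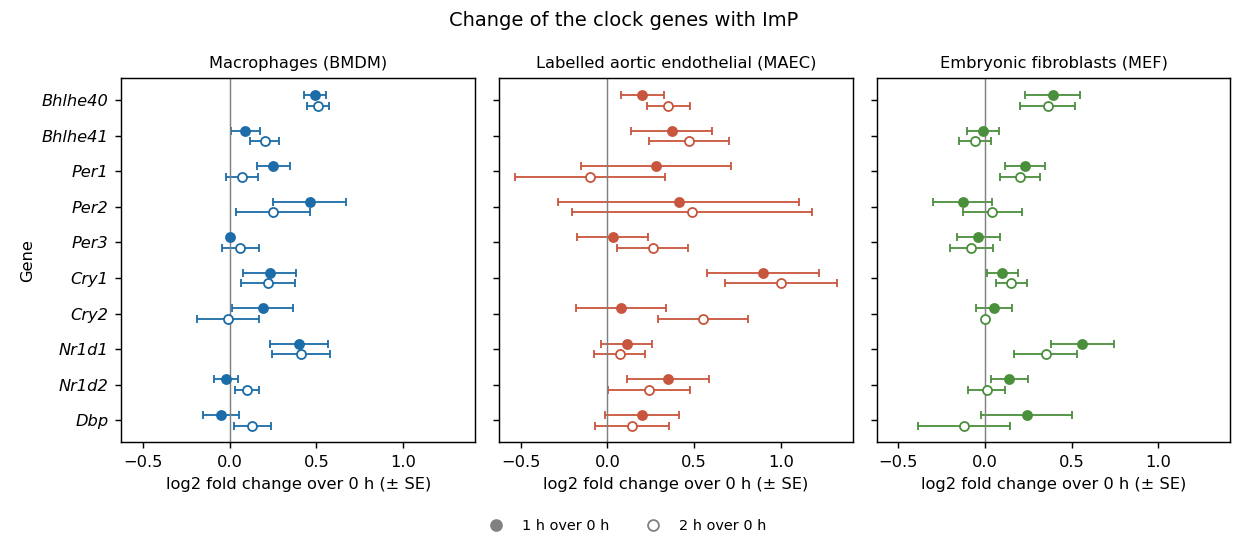
Log2 fold change over 0 h of each of the 10 genes at 1 h (filled) and 2 h (open) with ImP, by cell type, with bars of 1 SE. No bar is drawn for Per3 in BMDMs at 1 h and Cry2 in MEFs at 2 h, whose differences were 0.00. Bhlhe40 lies right of 0 in all panels (log2 0.20 to 0.51), with its narrowest bars in BMDMs, and Cry1 in MAECs reaches log2 1.00 with wide bars.

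The ImP differences were then compared between cell types in 1 model of all 27 libraries. For BMDMs against MEFs, 0 of the 9 members other than Bhlhe40 passed at 1 h or 2 h, and 0 had an unadjusted p under 0.05, where 0.00587% and 0.0117% of all genes passed and 3.62% and 2.18% had such a p. Bhlhe40 itself had a fitted difference between BMDMs and MEFs of log2 0.09 (SE 0.190) at 1 h and 0.12 (SE 0.190) at 2 h, given without a test because it was chosen in BMDMs. Without the third 1 h and 2 h BMDM libraries it was 0.08 (SE 0.212) and 0.12 (SE 0.212), and 0 of the 9 other members passed or had an unadjusted p under 0.05 at either time (0.154% and 0.0114% of all genes passed, and 3.34% and 2.09% had such a p). For MAECs against MEFs, 0 of 10 passed at either time (0% of all genes), with 1 unadjusted p under 0.05 at 1 h (11% of all genes) and 2 at 2 h (7.93%). DESeq2 and limma-voom also called 0 members in these comparisons. Cry1 differed by log2 0.74 (SE 0.334, adjusted p = 0.411) at 1 h and 0.79 (SE 0.333, adjusted p = 0.594) at 2 h, and Bhlhe41 by 0.49 (SE 0.221, adjusted p = 0.612) at 2 h. These values moved with single unstimulated MAEC libraries. Without the first, Cry1 passed at both times (log2 1.25, adjusted p = 0.0373, and log2 1.30, adjusted p = 0.0334). Calls over all genes at 1 h also rose in that fit, from 0 to 117 higher and 15 lower, so the Cry1 call did not stand alone. Without the second, Cry1 was at log2 0.47 (adjusted p = 0.483) at 1 h and 0.51 (adjusted p = 0.522) at 2 h. Without the third, Bhlhe41 was at log2 0.26 (adjusted p = 0.888) at 2 h.

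To see which genes varied most like Bhlhe40, log2 CPM was centred on each cell type's mean and compared over the 27 libraries for 10009 genes. The highest Pearson correlations were with Rgs16 (r = 0.82), a G protein signalling regulator, Pvr (r = 0.78), a nectin-like adhesion receptor, Skil (r = 0.78), a SMAD corepressor, Nr1d1 (r = 0.74) and Arl5b (r = 0.73), a small GTPase. Nr1d1 ranked 4th of the 10009 genes. Its correlation with Bhlhe40 was 0.70 within BMDMs, 0.52 within MAECs and 0.88 within MEFs, over 9 libraries each. The other members were lower, with Cry1 at 0.46, Bhlhe41 at 0.37, Nr1d2 at 0.32, Per3 at 0.27, Cry2 at 0.24, Per1 at 0.21, Per2 at 0.20 and Dbp at 0.10. The libraries share their treatment groups and depth, so these values describe the libraries and carry no test.

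**Figure D5:**
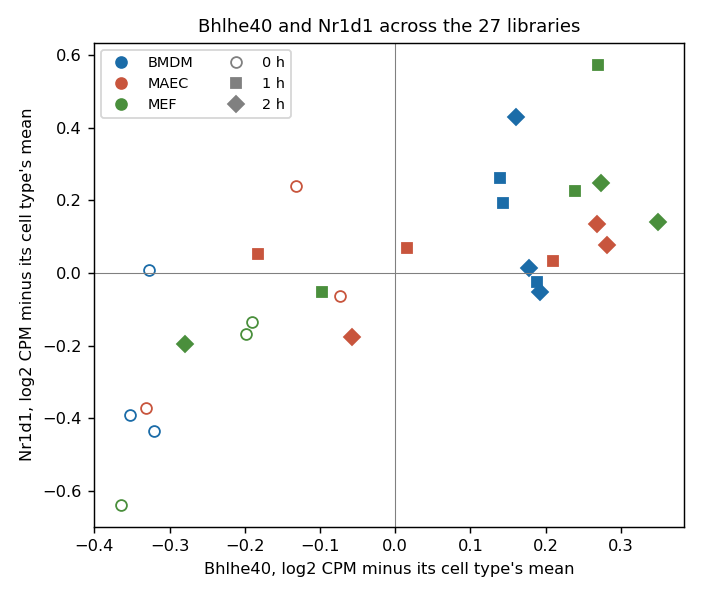
Bhlhe40 against Nr1d1 in the 27 libraries, both as log2 CPM minus the mean of the library's cell type. Colour gives the cell type and shape the time. Open circles (0 h) lie to the left of 0 for Bhlhe40 in all 3 cell types, and most treated libraries lie to the right (r = 0.74).

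Of 18 other clock genes, 15 were tested in BMDMs, 16 in MAECs and 18 in MEFs, and 0 passed after ImP in any cell type or between cell types by edgeR. Unadjusted p-values under 0.05 were scattered. In BMDMs, Rora, a nuclear receptor that activates Arntl, had log2 0.25 at 2 h (adjusted p = 0.770), and log2 0.27 (adjusted p = 0.591) without the third 1 h and 2 h libraries, where 0 of the 15 passed as well. In MAECs the ubiquitin ligase subunits Btrc (log2 -0.42) and Fbxw11 (log2 0.41) went opposite ways at 1 h, each with adjusted p = 0.826. In MAECs at 2 h, Fbxw11 (log2 0.57) and Tef, a relative of Dbp (log2 0.76), each had adjusted p = 0.539, and Arntl between 2 h and 1 h had log2 0.57 (adjusted p = 1.000). Npas2, a CLOCK paralogue, was at 0.627, 1.23 and 2.24 CPM after 1 h in MAECs, against 0.0195, 0.0437 and 0.263 CPM at 0 h (adjusted p = 0.826), levels too low for a usable fold.

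In MEFs the kinase gene Gsk3b had log2 0.17 at 2 h against 0 h (adjusted p = 1.000) and log2 0.23 at 2 h against 1 h (adjusted p = 0.225), and Clock had log2 0.19 at 2 h against 1 h (adjusted p = 0.321). The unadjusted p-values under 0.05 between cell types fell on Npas2, Btrc, Tef, Fbxw11, Rorb and Hlf, of which Hlf and Rorb stayed under 3 CPM in every library.

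Unstimulated BMDMs differed from MEFs in 14 of the 18 other clock genes, 4 higher and 10 lower, beside 68.3% of all genes. Rora was at 27.9, 35.3 and 32.7 CPM in BMDMs against 0.820, 1.67 and 0.965 CPM in MEFs (log2 4.81, adjusted p = 2.06e-12). Npas2 (log2 4.82) and Tef (log2 1.17) were also among those higher in BMDMs. Arntl (log2 -0.72, adjusted p = 0.00174) and Clock (log2 -0.91, adjusted p = 5.78e-07), the activator pair, were both lower in BMDMs. MAECs differed from MEFs in 13 of the 18, 4 higher and 9 lower, beside 72.1% of all genes, so neither count stands out from the background. Among them were Arntl, higher in MAECs (log2 0.60, adjusted p = 0.00563), and Clock, lower in MAECs (log2 -2.12, adjusted p = 1.31e-13).

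Genes that respond to cAMP or serum, stimuli that also raise Per1 in other settings, were counted beside the clock genes. Of 8, 0 passed after ImP in any cell type with all libraries. At an unadjusted p under 0.05 there were 4 in BMDMs at 1 h (5.23% of all genes), 2 in MAECs (4.96%) and 5 in MEFs (5.87%), and at 2 h 1 in BMDMs (6.15%), 1 in MAECs (9.21%) and 2 in MEFs (2.43%), all with a positive difference. Between 2 h and 1 h there were 0 in BMDMs (1.65% of all genes), 0 in MAECs (1.98%) and 2 in MEFs (12.1%). The 2 in MEFs were Fos and Junb, both with a negative difference. The BMDM genes at 1 h were Fosb, Nr4a1, Dusp1 and Junb. Nr4a1 shows the layout of Nfkbia, at 13.7, 13.8 and 15.2 CPM in unstimulated BMDMs, 52.0, 57.3 and 17.3 CPM after 1 h, and 17.8, 16.9 and 50.9 CPM after 2 h. Without the third 1 h and 2 h BMDM libraries, 5 of the 8 passed at 1 h (0.928% of all genes), all higher: Egr1 (log2 2.20, adjusted p = 7.21e-10), Nr4a1 (log2 1.94, adjusted p = 2.89e-08), Dusp1 (log2 1.91, adjusted p = 1.76e-07), Fos (log2 0.82, adjusted p = 6.81e-06) and Fosb (log2 1.55, adjusted p = 0.00357). Those libraries were set apart by the layout of Nfkbia, which Egr1, Nr4a1, Dusp1 and Fos share. Calls of such genes without them follow in part from that choice and are a description. In the same fit 0 of the 8 passed at 2 h (0.119% of all genes). Egr1, Nr4a1, Dusp1 and Fos passed as lower at 2 h than at 1 h (0.661% of all genes), with log2 -2.13 to -0.75. Between BMDMs and MEFs, 3 of the 8 (Egr1, Nr4a1 and Dusp1) then passed at 1 h (0.154% of all genes) and 0 at 2 h (0.0114%). In MEFs, Fosb (log2 1.88, adjusted p = 0.594) and Nr4a1 (log2 0.61, adjusted p = 0.566) had the smallest p-values at 1 h. Of 6 glucocorticoid targets, Fkbp5 in BMDMs (log2 0.32, adjusted p = 0.922) and Sgk1 in MEFs (log2 0.18, adjusted p = 0.846) had an unadjusted p under 0.05 at 1 h. Of all genes, 5.23% in BMDMs and 5.87% in MEFs had such a p at 1 h. Without the third BMDM libraries, 1 of the 6 passed at 1 h (0.928% of all genes), Sgk1 (log2 0.82, adjusted p = 1.09e-05). Fkbp5 was then at log2 0.28 (adjusted p = 0.696), Mt2 at 0.45 (adjusted p = 0.576), Tsc22d3 at -0.03, Klf9 at 0.01 and Zbtb16 at -0.06. Sgk1 also had the layout of Nfkbia in BMDMs, at 113, 103 and 55.5 CPM after 1 h and 61.8, 60.5 and 112 CPM after 2 h. Its call without the third libraries is thus a description as well.

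All 10 members are protein-coding genes. In GENCODE M21 (GRCm38), Bhlhe40 lies at chr6:108660629-108666925 on the plus strand and Bhlhe41 at chr6:145858243-145865558 on the minus strand of the same chromosome. Per1 (chr11:69095217-69109960, plus strand) and Nr1d1 (chr11:98767932-98775333, minus strand) share chromosome 11. The sources used here do not give the strand setting of the counting, so reads from overlapping genes on opposite strands may be mixed. Nr1d1 shares 263 exonic bases with Thra, which was at 14.9 to 24.2 CPM in BMDMs, 11.9 to 20.0 CPM in MAECs and 38.4 to 55.4 CPM in MEFs. Thra in MEFs was at 38.4, 45.9 and 45.0 CPM at 0 h, 55.4, 46.7 and 42.3 CPM after 1 h, and 47.1, 47.2 and 41.0 CPM after 2 h. Like Nr1d1, it was lowest at 0 h and highest at 1 h in the first run and was below its 0 h level at 2 h in the third. Dbp shares 539 exonic bases with Sphk2, which was at 113 to 130 CPM in BMDMs, 7.51 to 14.4 CPM in MAECs and 13 to 15.7 CPM in MEFs. Both Dbp and Sphk2 were thus higher in BMDMs than in MEFs, while in MAECs Dbp was higher than in MEFs and Sphk2 was not. The part of shared bases in the Nr1d1 and Dbp levels was not tested. Bhlhe40 shares 118 exonic bases with 0610040F04Rik and Cry2 shares 295 with D930015M05Rik, both at 0.323 CPM or less in every library. Bhlhe41 shares 1280 exonic bases with Gm43909, which was not analysed here.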

How the data were processed

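RNA was measured by bulk RNA-seq in 27 libraries, 3 in each of 9 groups set by the labels. The authors deposited a table of estimated counts, 1 row per gene symbol. Among tools, the submitters' processing notes name DESeq2, R 4.3.2, RSEM, STAR, FastQC and cutadapt, with the GRCm38 assembly. Their settings and the strand of counting are not given in the sources used here. All deposited values were already whole, so rounding changed none. Symbols were matched to GENCODE M21 for length and position (98.1%).

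From these counts, edgeR 4.0.16 in R 4.3.3 was run with filterByExpr (minimum count 10), TMM scaling and the robust quasi-likelihood F-test, in 1 fit per cell type for ImP and in 1 fit of all 27 libraries between cell types. P-values were adjusted over all genes tested by the Benjamini-Hochberg method, with a threshold of 0.05. The SE is the log2 difference divided by the root of F. All 10 members passed the filter in each cell type. The code was tested on simulated counts.

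Alternatives were DESeq2 1.42.0, limma-voom (limma 3.58.1), other scalings, filters and sample sets, a gene length correction, a block for runs of library codes, and leaving out libraries. Members, gene lists and the alternative without the third BMDM libraries at 1 h and 2 h were chosen with earlier results of these data known. The alternative without the third MEF run was chosen after seeing the data. Under ImP, differences are printed for members and listed clock genes with an unadjusted p under 0.05. Bhlhe40 is always given, and Per1 in MEFs, Nr1d1 in MAECs and Cry2 were added after their values were seen. Of the listed clock genes, 1 is counted with its list and is not reported here.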

Additional observations from a re-analysis of the deposited data

How the results depend on the processing

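In the 13 ImP comparisons, 0 members other than Bhlhe40 in BMDMs passed under each alternative run, with 1 exception. Leaving out libraries in turn, the number of members whose ImP difference passed between MAECs and MEFs ranged from 0 to 1 at 1 h and from 0 to 1 at 2 h, and the 1 was Cry1 without the first unstimulated MAEC library. The unstimulated calls ranged from 8 to 9 of 10 members for BMDMs and from 7 to 8 for MAECs, each against MEFs. The 16 ImP and 16 unstimulated differences of members with an unadjusted p under 0.05 kept their sign under each alternative run. Those 16 ImP differences include Bhlhe40 in BMDMs at 1 h and 2 h. It was chosen for that change, so its steady sign there is a description and lends no support. The other differences were picked by their p in these same libraries, which the alternatives largely reuse. Their kept signs are a description as well and lend no support. Of the other 114 ImP differences, 51, up to 0.41 in size on the log2 scale, changed sign under at least 1 alternative, and of the other 4 unstimulated ones 1 did (Per1 in BMDMs against MEFs). Over all genes, calls moved more: DESeq2 called 12 higher and 1 lower in BMDMs at 1 h and 14 higher and 1 lower at 2 h, where edgeR called 3 and 4, and 242 higher and 66 lower in MEFs between 2 h and 1 h, where edgeR called 0. For MAECs against MEFs DESeq2 called 55 higher and 26 lower at 1 h, where edgeR called 0, or 117 higher and 15 lower without the first unstimulated MAEC library. Runs of library codes did not meet the condition for pairing, a correlation of deviations from the group means above 0.1 in every pair: it was above 0.1 in 1 of 9 pairs in BMDMs (r from -0.4 to 0.197), 4 of 9 in MAECs (r from -0.0554 to 0.263) and 5 of 9 in MEFs (r from -0.139 to 0.47), including all 3 pairs of the third MEF run (0.205 to 0.47). With the runs as a replicate block, 0 members passed in the BMDM, MAEC and MEF comparisons, and Bhlhe40 in BMDMs was at log2 0.49 at 1 h and 0.51 at 2 h. Precision is limited by 3 libraries per group. For Per1 and Per2 in MAECs, Per2 in BMDMs and Dbp in MEFs (1.48 to 2.70 CPM), it is also limited by levels of a few CPM.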
